A study of Mus musculus with 8 samples.

Results

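A set of 10 genes of vascular growth factor signaling, out of 40840 gene rows per library, was followed in primary mouse myofibroblastic hepatic stellate cells (pMF-HSCs). They were taken by symbol and comprised the VEGF ligand genes Vegfa, Vegfb, Vegfc and Vegfd, the VEGF receptor genes Flt1 and Flt4, the angiopoietin genes Angpt1 and Angpt2, their receptor gene Tek, and Angptl4. Every one of the 10 had a row in all 8 libraries and passed the filter for testing, a total of at least 10 counts. The cells came from livers of wild-type male C57BL/6J mice aged 15 to 18 weeks, were sorted on retinol autofluorescence and became myofibroblastic over 7 days in culture. The control group (n = 4) then received the vehicle DMSO for 24 h, and the OGTi group (n = 4) received OSMI-1 at 50 µM in its place. OSMI-1 is a small molecule that blocks O-GlcNAc transferase (OGT), which attaches single N-acetylglucosamine sugars to nuclear and cytoplasmic proteins. All 8 cultures were from male mice of one strain, and the study's methods describe 4 independent experiments, each with a control and a treated culture. The labels do not say how many mice contributed to a culture.

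VEGF ligands are secreted proteins that bind receptor tyrosine kinases on endothelial cells. VEGF-A signals mainly through KDR, with FLT1 acting largely as a trap, whereas VEGF-C and VEGF-D act on FLT4, the receptor that drives lymphatic vessel growth. Angiopoietin-1, typically made by mural and mesenchymal cells, activates the receptor TEK (also called TIE2) and steadies vessels, and angiopoietin-2 often opposes it. Stellate cells sit around the liver sinusoid as its pericytes, and activated ones are a known source of VEGF and angiopoietins. ANGPTL4 is a secreted relative of the angiopoietins that does not bind TEK and is best known as an inhibitor of lipoprotein lipase.

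Angptl4, Tek and Angpt2 fell after OGTi, and 0 of the 6 VEGF ligand and receptor genes passed the edgeR test, with 0 at an unadjusted p under 0.05 and 0 called by DESeq2. The 3 genes thus made up the 3 of 10 members called changed, all lower, at an adjusted p of at most 0.05 (edgeR quasi-likelihood test with replicates paired, Benjamini-Hochberg adjustment over the 19963 genes tested). Over all genes tested 18.4% were called, 10.2% lower and 8.13% higher. DESeq2 called 4859 of the same 19963 genes. Counts in the gene lists below are to be read beside these shares. The median log2 fold change was -0.28 over the 10 members and 0.01 over all genes tested. The members were chosen with earlier results of these data known. Tek and Angptl4 are also in the study's list of its most significant lower genes in these libraries. The count of called members therefore describes the set and does not test it. Both the decreases and the lack of called VEGF genes can be read from single libraries, which are given for each gene as CPM, counts scaled to the size of the library after edgeR's TMM correction for library composition. Because RNA was measured in bulk, fewer cells making a transcript and less transcript per cell cannot be told apart.

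**Figure D1:**
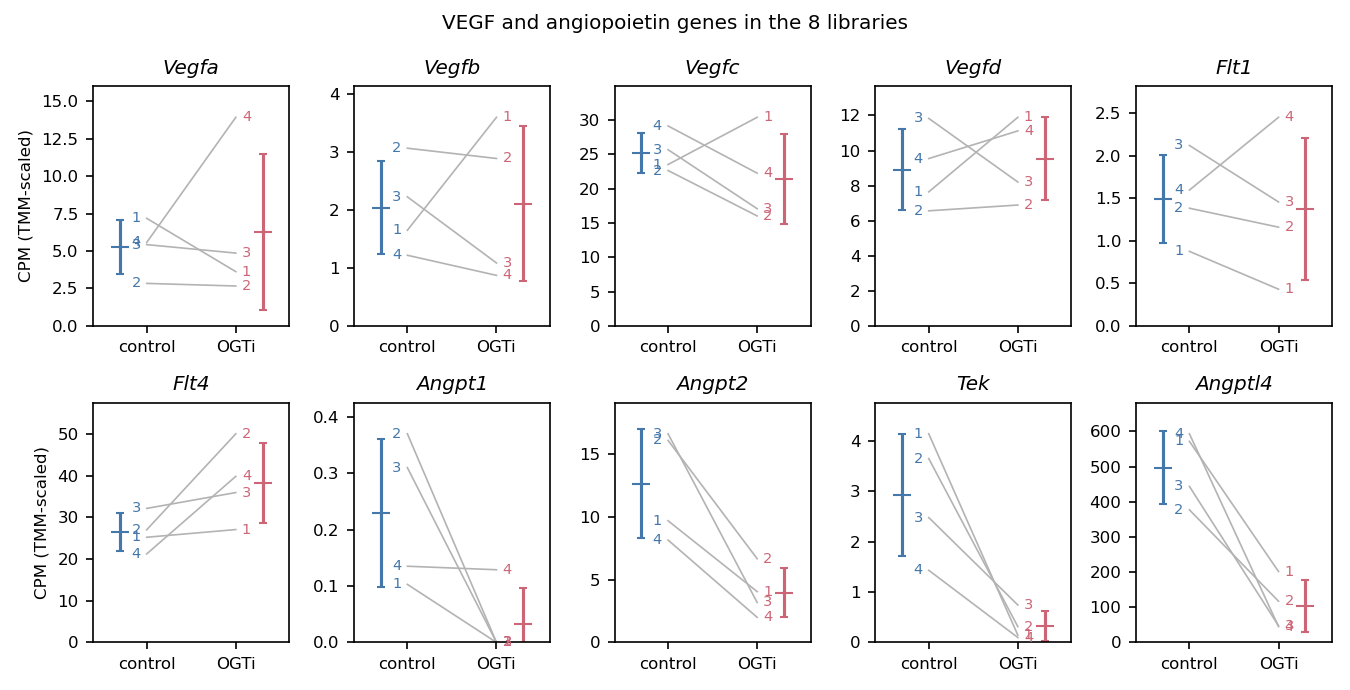
CPM of each of the 10 genes (vertical axes, each from 0) in the control and OGTi libraries. Digits are replicate numbers, grey lines join the libraries of one replicate, and bars give the mean and SD (n = 4). For Angpt2, Tek and Angptl4 every OGTi library lies below every control library.

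Some libraries stood apart before any comparison. Counts were found for 23746 genes in OGTi replicate 4, while the other OGTi libraries had 19422 to 19682 such genes. In OGTi replicate 1, the fifth of expressed genes with the shortest transcripts lay at a median of 0.60 on the log2 scale against the other OGTi libraries, and the fifth with the longest at -0.48. Totals ranged from 30068881 to 37372423 counts, so counting error was small except for the genes of few counts, Angpt1, Tek, Flt1 and Vegfb. Fold changes were therefore also computed without each replicate and with the trend on gene length removed. These checks cover the members, the genes of the lists below that edgeR called, and Kdr, Pgf, Nrp1, Nrp2 and Tie1. Their values are given where they change a call or a direction. For other genes named below no such values are given, and their stability is not shown.

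Per length of transcript, the 10 genes spanned several orders of magnitude in control cells. In TPM, a level scaled by gene length and depth, Angptl4 stood first at 516 ± 107 (SD, n = 4), and its place among all gene rows ranged from 314 to 518 over the control libraries. Vegfc followed at 26.6 ± 3.33 TPM, with no overlap between its libraries and those of either neighbour. Vegfd (11.0 ± 3.07), Flt4 (8.19 ± 1.496), Angpt2 (6.61 ± 2.31), Vegfb (3.51 ± 1.364) and Vegfa (3.07 ± 1.07 TPM) came next, each overlapping its neighbours in this order. Tek at 1.14 ± 0.458 TPM overlapped Flt1 at 0.525 ± 0.164, and Angpt1 was last at 0.110 ± 0.0648. In OGTi libraries Angptl4 was still first at 82.9 ± 52.8 TPM and Vegfc second at 17.7 ± 3.49 TPM, now overlapping Flt4. Angpt2 at 1.70 ± 1.03 TPM overlapped Vegfa and Vegfb and was above Vegfa in OGTi replicates 1 and 2, and Tek at 0.102 ± 0.0922 TPM overlapped Flt1.

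**Figure D2:**
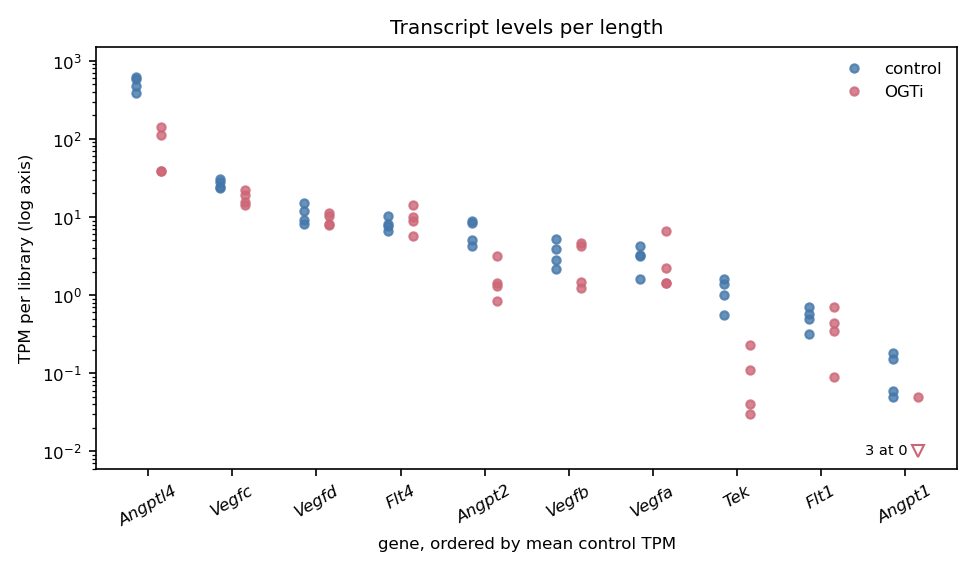
TPM (log axis) of each gene in each control and OGTi library, with genes ordered by their mean control level. The open triangle marks 3 OGTi libraries in which Angpt1 is listed at 0; Angptl4 lies above every other gene in both groups.

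Among the ligands, Vegfa encodes the main endothelial growth factor and lies on chromosome 17 (46327919 to 46343309, minus strand, GRCm39). Its control libraries held 7.18, 2.84, 5.42 and 5.57 CPM for replicates 1 to 4, and its OGTi libraries 3.62, 2.66, 4.86 and 13.9 CPM. Replicate 4 of OGTi was high and the other 3 OGTi libraries lay within or just below the control range, so that 3 of 4 pairs were lower and 1 was higher. The log2 fold change was 0.02 ± 0.37 (SE), with an edgeR adjusted p of 0.981, and it was -0.40 (adjusted p 0.484) without replicate 4, where the 13 alternatives gave adjusted p between 0.484 and 0.986.

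Vegfb, whose product binds FLT1, was low and variable (chromosome 19, 6958447 to 6965127). Control libraries 1 to 4 held 1.65, 3.06, 2.22 and 1.22 CPM, and OGTi libraries 3.59, 2.88, 1.08 and 0.870 CPM. The groups overlapped (log2 fold change -0.11 ± 0.39 SE, edgeR adjusted p 0.889).

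Vegfc and Vegfd encode the ligands of FLT4, and by mean TPM in control they were the 2 most abundant of the 4 VEGF ligand genes followed here, below Pgf, another ligand of the family. Vegfc (chromosome 8, 54530257 to 54640131) held 23.5, 22.6, 25.6 and 29.1 CPM in control libraries 1 to 4 and 30.4, 16.01, 17.1 and 22.2 CPM in OGTi libraries. OGTi replicate 1 was the highest of all 8, while the other 3 OGTi libraries lay below every control library. The log2 fold change was -0.28 ± 0.24 (SE), with an edgeR adjusted p of 0.474. On the TPM scale, by contrast, the groups did not overlap (23.5 to 30.8 TPM in control, 14.2 to 21.8 TPM in OGTi), yet limma-trend on log2(TPM + 1) gave -0.58 with an adjusted p of 0.0650. Whether the libraries overlapped thus depended on the unit, and Vegfc was called in neither.

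Vegfd (chromosome X, 163156240 to 163185646) held 7.64, 6.56, 11.8 and 9.54 CPM in control and 11.9, 6.89, 8.20 and 11.1 CPM in OGTi. The 2 groups covered nearly the same range (log2 fold change 0.10 ± 0.26 SE, edgeR adjusted p 0.835). Directions of Vegfa, Vegfb and Vegfd were not stable, since each changed sign under 4 of the 13 alternatives; scaling by library totals alone turned Vegfa and Vegfd.

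The make-up of the VEGF ligand pool was described by the share of Vegfa in the summed TPM of the 4 ligand genes. It was 10.4%, 4.22%, 6.44% and 6.79% in control libraries 1 to 4 and 3.73%, 4.79%, 8.60% and 17.3% in OGTi libraries. OGTi replicate 4 was the highest and OGTi replicate 1 the lowest, so the groups overlapped. The mean difference was 1.65 percentage points, higher in 3 of 4 pairs (two-sided exact permutation test within pairs, p = 0.625, where 0.125 is the smallest p that 4 pairs can give). Without replicate 4 the difference was -1.305 percentage points.

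Flt1 encodes a VEGF receptor that also exists as a soluble trap (chromosome 5, 147498414 to 147662826, minus strand). Control libraries 1 to 4 held 0.875, 1.38, 2.12 and 1.59 CPM, from 34, 56, 82 and 59 counts. OGTi libraries held 0.431, 1.16, 1.45 and 2.45 CPM, from 15, 37, 47 and 76 counts. OGTi replicate 1 was the lowest and OGTi replicate 4 the highest of the 8, and the log2 fold change of -0.27 ± 0.38 (SE) did not pass the test (edgeR adjusted p 0.680). The tables list 9 transcript models for Flt1, and counts were not split into membrane and soluble forms.

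Flt4, the receptor for VEGF-C and VEGF-D, was the more abundant of the pair of receptors (chromosome 11, 49500090 to 49543582). Its control libraries held 25.2, 27.0, 32.1 and 21.2 CPM, and its OGTi libraries 27.1, 50.0, 35.9 and 39.8 CPM. In CPM, OGTi was higher in 4 of 4 pairs but overlapped control through OGTi replicate 1. In TPM, control libraries 1 to 4 held 7.72, 8.25, 10.18 and 6.60 and OGTi libraries 5.72, 14.2, 8.79 and 10.12, so that pairs 1 and 3 were lower in OGTi, and limma-trend on log2(TPM + 1) gave 0.17 (adjusted p 0.652). The log2 fold change of 0.52 ± 0.24 (SE) did not pass the test, with an edgeR adjusted p of 0.164. Flt4 has one of the longest transcripts of the 10, with an effective length of 5604.41 to 5613.56 bases. With the trend on gene length removed from each library, its log2 fold change was 0.77 and it was called (edgeR adjusted p 0.0206), the lowest of 13 alternatives whose adjusted p reached 0.657.

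The promoters of Vegfa and Flt1 are shown because both genes are known targets of hypoxia-inducible factor (HIF) and neither was called here. Shown are the 250 bases before the start site in RefSeq, 5′ to 3′ on the gene's own strand. Their coordinates were found by matching to GRCm39, and capitals mark the HIF core motifs ACGTG and GCGTG and the TEAD core motif GGAATG on either strand.
Vegfa, chr17:46343304-46343553, minus strand: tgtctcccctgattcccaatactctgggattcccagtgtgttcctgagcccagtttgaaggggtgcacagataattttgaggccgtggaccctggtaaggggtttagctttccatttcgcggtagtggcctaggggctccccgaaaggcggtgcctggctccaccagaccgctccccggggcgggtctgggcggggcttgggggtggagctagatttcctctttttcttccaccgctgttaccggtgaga
Flt1, chr5:147662822-147663071, minus strand: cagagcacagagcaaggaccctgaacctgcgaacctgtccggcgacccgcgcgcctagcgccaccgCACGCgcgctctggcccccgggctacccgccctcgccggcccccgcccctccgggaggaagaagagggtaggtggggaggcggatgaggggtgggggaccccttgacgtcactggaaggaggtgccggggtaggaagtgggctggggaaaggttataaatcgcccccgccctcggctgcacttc
In this window Vegfa held none of the 3 motifs, and Flt1 held 1 match to GCGTG. Of 32851 promoter windows of this length, 16.6% held ACGTG, 28.2% GCGTG and 12.6% GGAATG. Each motif was counted at every position, and matches may overlap. The windows of Vegfc, Vegfd, Flt4 and Tek held no match, whereas that of Vegfb held 2 of GCGTG and a second Vegfa start site held 1 each of ACGTG and GCGTG. The window of that second start site (chromosome 17, 46336090 to 46336339) lies inside the Vegfa gene. A match is a string of letters and not a bound site. Sequence outside the 250 bases was not searched, so a window without a match does not mean a gene without such a site.

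Tek was the member with the largest called decrease. It encodes the angiopoietin receptor TIE2 and lies on chromosome 4 (94627291 to 94763224, plus strand). Control libraries 1 to 4 held 161, 148, 96 and 53 counts, or 4.14, 3.65, 2.48 and 1.43 CPM. OGTi libraries held 5, 10, 24 and 3 counts, or 0.144, 0.313, 0.743 and 0.0967 CPM. The highest OGTi library, replicate 3, lay below the lowest control library, replicate 4. The log2 fold change was -3.36 ± 0.53 (SE), lower in 4 of 4 pairs, with an edgeR adjusted p of 0.00235. Summed over libraries, 458 counts in control stood against 42 in OGTi, a 9.14-fold difference after scaling (95% exact interval 6.66 to 12.9, counting error only). Size varied between pairs, from -4.85 in pair 1 to -1.74 in pair 3 on the log2 scale. Without replicate 3 the log2 fold change was -4.05, and it was -0.93 with limma-trend on log2(TPM + 1), where the added 1 exceeds most of the gene's values.

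Angpt2 encodes the context-dependent TEK ligand that many cells induce during vessel remodelling (chromosome 8, 18739202 to 18791603, minus strand). It held 9.70, 16.1, 16.6 and 8.16 CPM in control libraries 1 to 4 and 4.05, 6.67, 3.19 and 2.00 CPM in OGTi libraries. No OGTi library reached the lowest control library. The log2 fold change was -1.73 ± 0.28 (SE), a 3.31-fold decrease seen in 4 of 4 pairs, with an edgeR adjusted p of 0.00276. Pairs ranged from -2.38 to -1.26 on the log2 scale.

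Angpt1, the activating ligand of TEK, was close to the limit of detection (chromosome 15, 42288058 to 42540417, minus strand). Control libraries held 4, 15, 12 and 5 counts, and OGTi libraries 0, 0, 0 and 4 counts. A count of 0 allows up to 3 counts, or 0.0862, 0.0940 and 0.0929 CPM in OGTi replicates 1 to 3, against 0.103 to 0.370 CPM in control. OGTi replicate 4, at 0.129 CPM, lay above control replicate 1 and just below control replicate 4 at 0.135 CPM, so the groups overlapped. Over all libraries 36 counts in control stood against 4 in OGTi, a ratio of 7.55 after scaling (95% exact interval 2.71 to 29.2, counting error only). With the spread between cultures taken into account the gene was not called, at a fitted log2 fold change of -3.34 ± 1.49 (SE; edgeR adjusted p 0.153, unadjusted p 0.0481). The fitted value was unstable, at -6.20 without replicate 4 and -2.56 without replicate 2. DESeq2 gave an adjusted p of 0.0556, the lowest of the 13 alternatives, of which the highest was 0.371.

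Angpt2 exceeded Angpt1 in every library. The ratio of their TPM was 100, 46.1, 59.2 and 71.3 in control libraries 1 to 4 and 17.0 in OGTi replicate 4, and it has no value in the OGTi libraries where Angpt1 is listed at 0. The share of Angpt1 in the sum of both was 1.54% ± 0.478 in control and 1.39% ± 2.78 in OGTi (SD, n = 4), with a two-sided exact permutation p of 1 within pairs. That share rested on the 4 counts of OGTi replicate 4.

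Angptl4 had the most counts of the 10 genes and so the smallest counting error (chromosome 17, 33992724 to 34000804, minus strand). Control libraries 1 to 4 held 572, 377, 443 and 593 CPM, and OGTi libraries 201, 117, 47.3 and 45.0 CPM. The highest OGTi library lay well below the lowest control library. The log2 fold change was -2.53 ± 0.38 (SE), a 5.78-fold decrease in 4 of 4 pairs, with an edgeR adjusted p of 0.00185. On the log2 scale pairs 3 and 4 stood at -3.23 and -3.72, and pair 2 at -1.69, close to pair 1. In OGTi libraries its place by TPM among all gene rows ranged from 1098 to 3061.

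**Figure D3:**
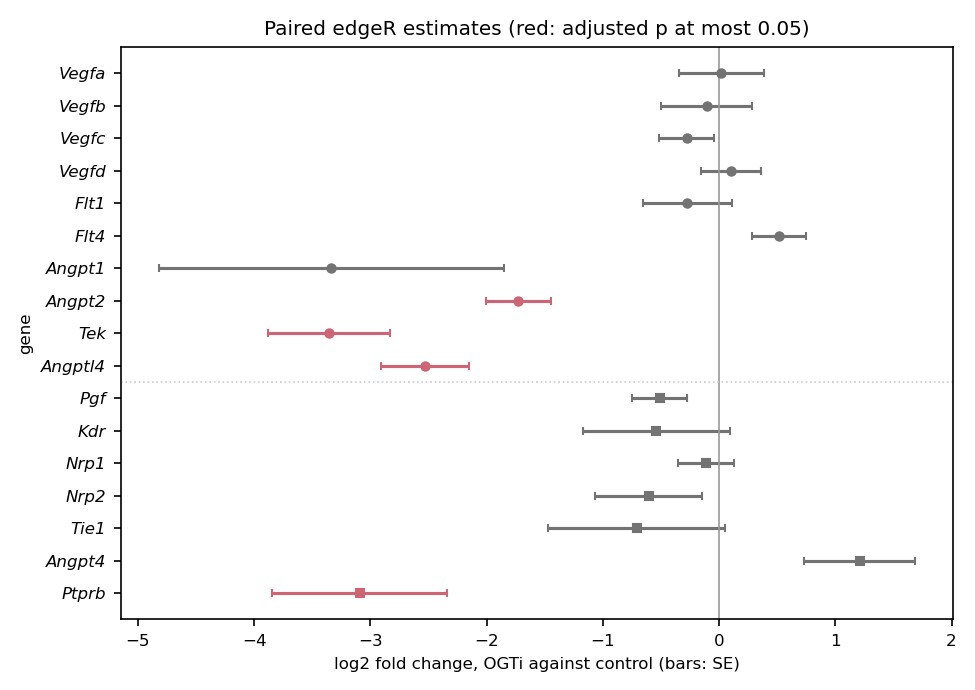
Log2 fold change of OGTi against control (horizontal axis, bars are SE) for the 10 genes (circles) and 7 further ligands, receptors and co-receptors (squares), 4 libraries per group. Red points have an edgeR adjusted p of at most 0.05, which only Angpt2, Tek, Angptl4 and Ptprb reach, all at negative values.

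Angpt2, Tek and Angptl4 stayed called, and lower, under each of the 13 alternatives. Their log2 fold changes ranged from -1.99 to -1.51, from -4.05 to -0.93 and from -2.89 to -2.12, and the highest adjusted p of the 3 genes were 0.0201, 0.0161 and 0.0103. They are also the 3 members whose CPM did not overlap between groups. Of all genes tested, 12.0% had every OGTi library below every control library, and 11.5% had every OGTi library above every control library.

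**Figure D4:**
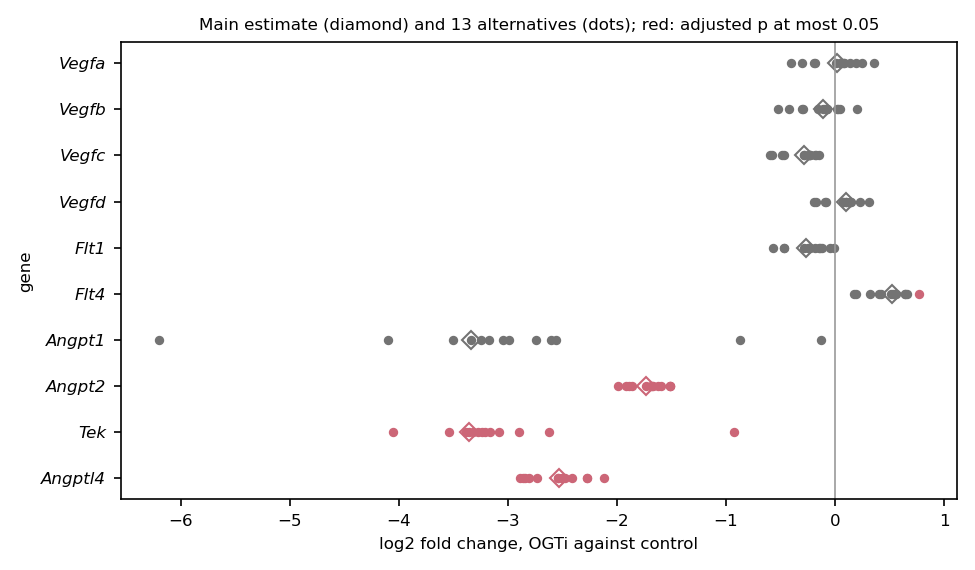
Log2 fold change (horizontal axis) of the 10 genes in the reported fit (diamond) and under 13 alternatives (dots), red where the adjusted p is at most 0.05. Angpt2, Tek and Angptl4 are red throughout, Flt4 is red in 1 alternative, and Vegfa, Vegfb and Vegfd fall on both sides of 0.

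The other ligands and receptors of both systems were counted from a fixed list of 7 genes, of which 1 was called lower and 0 higher. Ptprb, which encodes the phosphatase VE-PTP that acts on TEK, fell from 1.33 ± 1.02 to 0.157 ± 0.158 CPM (SD, n = 4; log2 fold change -3.09 ± 0.75 SE, edgeR adjusted p 0.0182). Its call was lost when replicate 1 or 2 was left out (adjusted p 0.0515 and 0.0869) and with limma-trend on log2(TPM + 1) (0.0641), and its log2 fold change was -2.39 without replicate 3. Nrp1, the VEGF co-receptor neuropilin-1, was the most abundant of the list at 97.6 ± 15.2 TPM in control and 75.1 ± 28.2 TPM in OGTi, with a log2 fold change of -0.11 (adjusted p 0.797). Pgf, which encodes placental growth factor, a ligand of FLT1, was at 36.5 ± 17.4 and 19.4 ± 6.13 TPM, lower in 4 of 4 pairs with a log2 fold change of -0.51 (adjusted p 0.166). Limma-trend on log2(TPM + 1) called it (-0.80, adjusted p 0.0291). Kdr, Tie1 and Nrp2 were all under 1 TPM on average in both groups, at 0.265, 0.158 and 0.960 TPM in control, and had adjusted p of 0.616, 0.579 and 0.412. Angpt4 was not called (log2 fold change 1.21, adjusted p 0.112).

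Of 29 genes that carry signals below these receptors, edgeR called 4 higher and 2 lower, and 23 were not called. DESeq2 called 9, those 6 with Mapk14, Rasa1 and Tnip2, which had edgeR log2 fold changes of 0.58, 0.65 and 0.58, higher in 4 of 4 pairs. Over all genes tested edgeR called 18.4%, and DESeq2 called 4859 of 19963. Fyn and Shb, a kinase of the SRC family and an adaptor of VEGF receptor signaling, rose with log2 fold changes of 1.67 (adjusted p 0.00166) and 1.12 (adjusted p 0.00764), and Shb lost its call without replicate 3 (0.0536) and with limma-trend on log2(TPM + 1) (0.0523). Pik3r1, the regulatory subunit of phosphoinositide 3-kinase, rose by 0.74 (adjusted p 0.0329), and it lost its call without replicate 2, 3 or 4, where its adjusted p ranged from 0.0898 to 0.118. Pik3r1 was not called with library totals alone (0.54, adjusted p 0.113) or by limma-trend on TPM with 1 or 0.1 added (0.36 and 0.41, adjusted p 0.245 and 0.242). Hspb1, a small heat shock protein phosphorylated downstream of VEGF, rose by 3.49 (adjusted p 0.00824), and it was at 54.9 CPM in control replicate 4 against 604 to 631 CPM in the other controls. Its log2 fold change was 2.63 without replicate 4 and 4.16 without replicate 2, and it was called in both cases. Ptk2, which encodes focal adhesion kinase, and Akt2 fell by 0.83 (adjusted p 0.0121) and by 0.75 (adjusted p 0.0276). Without replicate 3 neither passed (adjusted p 0.0707 and 0.110), nor without replicate 4 (0.0536 and 0.0806), and Akt2 was not called without replicate 2 (0.0649) either. Ptk2 was at -0.58 and not called with the length trend removed (adjusted p 0.0624), and Akt2 was not called with upper-quartile scaling (0.0571). The median log2 fold change of the list was 0.32.

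The relatives of Angptl4 and its lipase partners were examined next. Of 3 other angiopoietin-like genes tested, Angptl6 rose from 3.64 ± 2.00 to 17.5 ± 3.26 CPM (SD, n = 4; log2 fold change 2.39 ± 0.38 SE, edgeR adjusted p 0.00240). Angptl2 and Angptl8 were not called. Of 4 genes of the lipase system tested (Lpl, Lipg, Lmf1 and Gpihbp1), 0 were called by edgeR. Lpl was at 35.0 ± 1.47 CPM in control and 47.5 ± 11.3 CPM in OGTi (log2 fold change 0.41, edgeR adjusted p 0.223). It was higher in 4 of 4 pairs with no overlap of the groups. Of all genes tested, 11.5% had every OGTi library above every control library. Lipg, an endothelial lipase gene, was the 1 gene of the list at an unadjusted p under 0.05 and the 1 that DESeq2 called. It stood higher in OGTi in 3 of 4 pairs (log2 fold change 1.17, edgeR adjusted p 0.0926).

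Angptl4 is a known target of the nuclear receptors PPARA, PPARD and PPARG, and of HIF. Of 9 genes tested from a list of PPAR factors and targets, 3 were called lower, 1 higher and 5 were not called, with a median log2 fold change of -0.01. Plin2, a lipid droplet coat protein, fell by 1.09 (adjusted p 0.00757). Pdk4, a brake on pyruvate oxidation, fell by 1.42 (adjusted p 0.0266). Cpt1a, which brings fatty acids into mitochondria, fell by 1.01 (adjusted p 0.0275), and Ppard itself rose by 0.94 (adjusted p 0.0295). Plin2 stayed called under all 13 alternatives. Pdk4 lost its call without replicate 4 (adjusted p 0.114), Cpt1a without replicate 1, 3 or 4 (0.0745 to 0.108), and Ppard without any one replicate (0.0505 to 0.153). Cpt1a was not called with no replicate block (0.0748), nor Ppard with library totals alone (0.0734) or by limma-trend on TPM with 1 or 0.1 added (0.133 and 0.142).

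Of 17 HIF factors and targets, 3 were called higher, 1 lower and 13 were not called, with a median log2 fold change of -0.10. Ndrg1, a stress-responsive gene, rose by 3.08 (adjusted p 0.000210), Slc2a1, the glucose transporter GLUT1, by 0.86 (adjusted p 0.0102), and Ankrd37 by 1.44 (adjusted p 0.0144). Adm, which encodes the vasodilator adrenomedullin, fell by 1.63 (adjusted p 0.00129). Slc2a1 lost its call without replicate 3 (adjusted p 0.0736), and Ankrd37 without replicate 1 (0.0503) or replicate 2 (0.0529). With no replicate block neither was called (adjusted p 0.0763 for Slc2a1 and 0.0604 for Ankrd37). Hif1a, with a log2 fold change of -0.68, was not called (adjusted p 0.502).

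Tek, Flt1 and Flt4 are endothelial genes in the liver, so markers of other liver cells were read in the same libraries. Of 15 endothelial markers, 13 stayed under 1 TPM in every library, and none was at 0 in all 8. Summed over these 13, levels were 1.28 to 2.53 TPM in control and 0.410 to 1.58 TPM in OGTi, and the highest single value was 0.680 TPM, for Lyve1. Cdh5, which encodes VE-cadherin, averaged 0.0175 TPM in control and 0.0200 TPM in OGTi. The exceptions were Esam and Egfl7, at 57.5 ± 16.9 and 32.1 ± 14.1 TPM in control. Over the whole list the sums were 59.2 to 117 TPM in control and 98.4 to 142 TPM in OGTi. Of the 12 markers tested, Esam rose by 0.91 (adjusted p 0.0128), Lyve1, a receptor of sinusoidal and lymphatic endothelium, fell by 3.17 (adjusted p 0.0340; -4.02 without replicate 2 and -2.55 without replicate 4), and 10 were not called. Lyve1 lost its call without any one replicate (adjusted p 0.0623 to 0.103) and with no replicate block (0.0749), and Esam without replicate 3 (0.0978) or replicate 4 (0.0500136). The part of endothelial cells in the decrease of Tek was not tested.

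Stellate cell and myofibroblast markers were present, with Acta2 at 2157 ± 439 TPM and Des at 134 ± 11.5 TPM in control. Of 13 such markers, edgeR called 3 lower and 0 higher, with 8 at an unadjusted p under 0.05, among them Tagln, which stood higher in OGTi in 4 of 4 pairs (log2 fold change 0.53, edgeR adjusted p 0.0820). DESeq2 called 6, those 3 with Col3a1, Hand2 and Ngfr, of which Ngfr stood higher in OGTi (edgeR log2 fold change 1.46, adjusted p 0.158, higher in 3 of 4 pairs). For this and the following lists, the shares over all genes tested were 18.4% by edgeR and 4859 of 19963 by DESeq2. Lrat, which makes the stored retinyl esters, fell by 1.78 (adjusted p 0.00232), Pdgfrb by 1.68 (adjusted p 0.00154) and Hgf by 2.13 (adjusted p 0.00156). The list's sums were 3696 to 6757 TPM in control and 3060 to 7209 TPM in OGTi. Hepatocyte markers summed to 0 to 0.660 TPM in control and 0.130 to 1.3 TPM in OGTi, and 0 of the 3 tested were called by edgeR, by DESeq2 or at an unadjusted p under 0.05. Of 8 macrophage markers, 4 stayed under 1 TPM, 1 was called higher by edgeR (Cd68, by 1.4995 on the log2 scale, adjusted p 0.00154) and 0 lower, while DESeq2 called 2 (Lyz2 as well), with sums of 49.8 to 175 and 90.2 to 230 TPM. Of 4 cholangiocyte markers, Krt19 was called lower, from 118 ± 23.9 to 59.8 ± 11.8 TPM, with a log2 fold change of -0.66 (adjusted p 0.0462) that lost its call without any one replicate (0.0606 to 0.144), with upper-quartile scaling (0.110), with no low-count filter (0.0561) and with no replicate block (0.0731). Sums of the 4 markers were 305 to 652 and 125 to 551 TPM. Spp1 made the largest part on average, at 356 ± 189 TPM in control and 234 ± 177 TPM in OGTi. It was lower in 2 of 4 pairs and not called (log2 fold change -0.43, edgeR adjusted p 0.308). Epcam stayed under 1 TPM in every library. It stood higher in OGTi in 4 of 4 pairs and was not called (log2 fold change 2.18, edgeR adjusted p 0.124). Krt7 averaged 1.11 TPM in control and was not called (log2 fold change -0.24, edgeR adjusted p 0.886). The part of these other cell types in the members' values was not tested.

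For each called member, the genes with the most similar profile over the 8 libraries were listed by Pearson's r of log2 CPM, as a description. For Angptl4 they were 2510002D24Rik (r = 0.994), Tirap (0.992) and Stoml2 (0.990). For Tek they were Igf2bp1 (0.979), Snx24 (0.975) and Itgb6 (0.970), and for Angpt2 they were Fancg (0.986), Lbh (0.985) and Serpinb9 (0.984). Each of the 9 genes was called lower in OGTi, and all 8 points share the libraries and the difference between groups.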

How the data were processed

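RNA-seq was available for 4 control and 4 OGTi cultures, with group and replicate number from the sample titles. The authors sequenced stranded, paired-end libraries after oligo dT selection, aligned the reads to mm39 (GRCm39) with Bowtie2 2.3.5.1 and counted them with RSEM 1.3.1, and deposited expected counts per gene, TPM and effective lengths for each library. The methods name a GENCODE annotation, while the tables list RefSeq transcripts. The table of the authors' own DESeq2 1.36.0 comparison (log2 fold changes and p-values, with 16 columns of per-sample values) was not used.

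Expected counts were rounded and genes with a total of at least 10 counts kept. edgeR 4.0.16 in R 4.3.3 was run with TMM scaling, the replicate as a block and a quasi-likelihood test, and p-values were adjusted over all genes tested. The threshold for a call was 0.05. The SE is the log2 fold change over the root of the F statistic. The block follows the study's methods, which pair the samples of a replicate. Deviations from group means in same-numbered libraries correlated at 0.160, 0.224, 0.105 and 0.318 across genes, against -0.312 to 0.208 for other pairs. DESeq2 1.42.0 and limma 3.58.1 served as alternatives, and the code was tested on simulated data. Totals of 30068881 to 37372423 counts per library left the spread between cultures as the main limit for all but the lowest genes, and reads carry no molecular identifiers.

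The 10 members and all lists were chosen with earlier results of these data known, and Tek, Angpt1 and Angptl4 are in the study's list of its most significant lower genes in these libraries. All members were named, as were called genes of the other lists (at most 8 per list), Kdr, Pgf, Nrp1, Nrp2 and Tie1, and the 3 genes of mean CPM of at least 1 most correlated with each called member. Other genes named were chosen after their values were seen. Gene positions are from GENCODE M39, in which no member overlaps another gene on its strand (0 of 10), and promoter sequences are from RefSeq (GRCm38.p6), which matched 7 of the 10 members, placed on GRCm39 by exact match.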

Additional observations from a re-analysis of the deposited data

Results flagged for a closer look

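Angpt1 in OGTi replicate 4 was at 0.129 CPM (4 counts), and it was listed at 0 in the other 3 OGTi libraries, a gap that takes up the whole range of the group. For the same reason its share of summed Angpt1 and Angpt2 TPM was 5.56% in that library and 0% in the others. Such a library was looked for in 24 groups of 4 values and found in these 2, where chance would give 1.2. With the other 3 values at 0, any count in the last library raises the flag, and both flags rest on the same 4 counts. The number given by chance therefore cannot be set against them. OGTi replicate 4 was also the library with the most genes detected (23746); the part of this in the value was not tested.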

How the results depend on the processing

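The number of members called was 3 with 12 of the alternatives and 4 with the trend on gene length removed, when Flt4 made 1 member higher. Across all genes tested, limma-trend on log2(TPM + 1) or log2(TPM + 0.1) gave 3456 or 3473 lower genes in place of 2043; the cause was not tested. Leaving out 1 replicate left 6 libraries and gave from 1905 to 3124 called genes, from 1062 to 1744 lower and from 843 to 1433 higher. With no replicate block the same 3 members were called, and the block changed no call of a member; of the named genes of other lists, Cpt1a, Slc2a1, Ankrd37, Lyve1 and Krt19 lost their calls without the block. The sign of some uncalled genes changed. Vegfa was at -0.18 with library totals alone, -0.19 and -0.30 with limma-trend (1 or 0.1 added) and -0.40 without replicate 4. Vegfb was at 0.02 with upper-quartile scaling, 0.05 with no replicate block and 0.20 and 0.03 without replicates 3 and 4. Vegfd was at -0.09 with library totals alone, -0.17 and -0.19 with limma-trend and -0.08 without replicate 1. When 1 replicate was left out, Vegfa ranged from -0.40 to 0.36, Vegfb from -0.52 to 0.20, Vegfd from -0.08 to 0.31, Kdr from -0.95 to 0.13 and Nrp1 from -0.25 to 0.17. Kdr was at 0.13 without replicate 1, and Nrp1 at 0.01, 0.15 and 0.17 with upper-quartile scaling, with the length trend removed and without replicate 1. Over all genes the median change was 0.01 on the log2 scale by TMM, 0.13 by the upper quartile and -0.19 by library totals. The difference in the Vegfa share ranged from -1.30 to 4.41 percentage points, and that in the Angpt1 share, an analysis chosen after seeing the data, from -1.59 to 0.507, when 1 replicate was left out. With 4 against 4 libraries unpaired, their exact permutation p was 0.743 and 1. The planned test of the ratio of Angpt2 to Angpt1 was not run, because Angpt1 is listed at 0 in 3 libraries. Alternatives for genes of the other lists were added after seeing the data.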
